A study of Homo sapiens with 4 samples.

Results

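Collagen chain genes were examined in SKOV3 cells, a human ovarian cancer cell line, grown as a monolayer on a tissue culture plate (TCP) or as tumor spheroids on polymer X, a thin polymer film coated on the plate. The members were all genes whose symbol had the form COL, a number, A and a number, which gave 44 of the 19475 gene symbols measured. They comprised 11 fibrillar chains, 6 type IV chains of the basement membrane, 5 type VI chains and 22 chains of other types. RNA-seq had been performed on 2 libraries of TCP cells, given as day 0, and on 2 libraries of polymer X spheroids, given as day 8. Both groups were the same unmodified cell line. The spheroids were kept in medium with serum replacement and were dissociated at intervals during the culture. The sample records give this medium for all 4 libraries, whereas the methods of the study describe serum for the maintenance of SKOV3 on plates, so that the medium of the TCP cells is uncertain. Substrate, culture time and possibly medium therefore changed together and cannot be told apart. The records do not state that the libraries came from separate cultures, and the p-values given here measure only the spread between these libraries.

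Collagens are secreted proteins of the extracellular matrix in which 3 alpha chains wind into a helix, each chain being encoded by its own gene. Fibrillar collagens (types I, II, III, V, XI, XXIV and XXVII) assemble into cable-like fibrils, type IV forms the sheet of the basement membrane, and type VI forms beaded microfilaments close to the cell surface. Other types attach to the surface of fibrils, anchor the basement membrane or span the plasma membrane. In ovarian tumors, interstitial collagens are usually attributed to stromal cells, while carcinoma cells are known to deposit basement membrane collagens.

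Levels are given as FPKM, the fragments mapped to a transcript scaled to its length and to the mapped total of the library, which allows chains of different length to be compared. The number of mapped tags recovered from the values was 38405000 to 44918000 per library. The limma test, on log2(FPKM + 1), covered the genes that reached 1 FPKM in at least 2 libraries. A gene was called when its Benjamini-Hochberg adjusted p was under 0.05 and its log2 fold change at least 1 in size. For genes of low FPKM, fold changes on that scale come out smaller than the ratio of the means. Replicates correlated at 0.998 on TCP and 0.997 on polymer X, over the genes tested.

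Summed over the 44 chains, collagen mRNA was at 559.9 and 574.4 FPKM in the 2 TCP libraries and at 1184 and 1231 FPKM in the 2 polymer X libraries. The mean was 2.13-fold higher on polymer X, and collagen made up 0.178% and 0.189% of the FPKM of all genes on TCP against 0.426% and 0.453% on polymer X. In bulk RNA, a change in the share of cells that express a gene and a change in the RNA per cell cannot be told apart. The classes did not move together. Type VI was at 42.9 and 42.1 FPKM on TCP and at 549 and 568 FPKM on polymer X, or 7.67% and 7.33% of all collagen FPKM against 46.4% and 46.1%. Type IV stood at 216 and 222 FPKM on TCP and at 112 and 115 FPKM on polymer X, and its share was 38.6% in both TCP libraries against 9.43% and 9.32%. Fibrillar chains were at 95.7 and 101.5 FPKM on TCP and at 212 and 224 FPKM on polymer X, close to a constant share of 17.1% to 18.2%. The other chains summed to 205 and 209 FPKM on TCP and to 312 and 325 FPKM on polymer X. These sums are descriptions, because an exact two-sided permutation test of 2 against 2 libraries cannot give a p below 0.333.

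**Figure D1:**
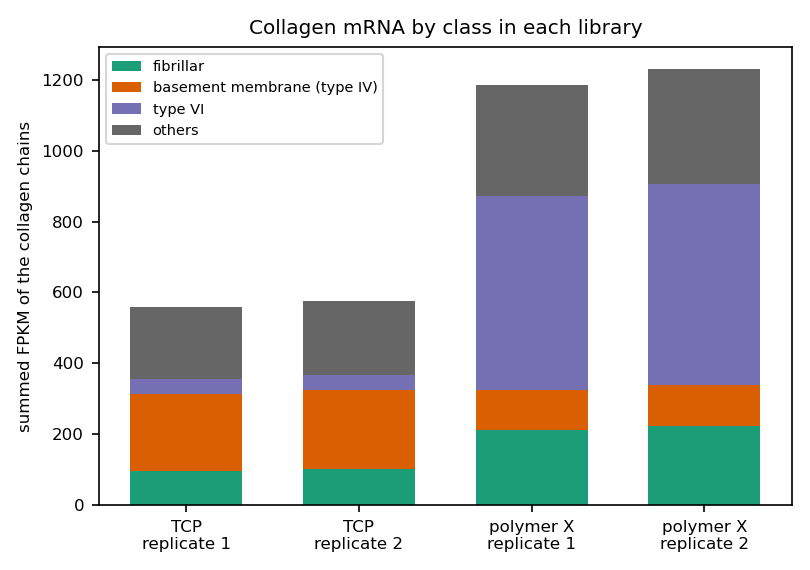
Stacked bars give the summed FPKM of the 44 collagen chain genes (vertical axis) in each of the 4 libraries, divided by class. The type VI segment is at 42.9 and 42.1 FPKM on TCP and at 549 and 568 FPKM on polymer X, while the type IV segment is at 216 and 222 FPKM on TCP and at 112 and 115 FPKM on polymer X.

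Of the 44 chains, 22 passed the filter, 11 were called higher on polymer X, 1 was called lower and 10 were not called. Over all 11964 genes tested, 10.7% were called higher and 9.45% lower, 20.2% in either direction. Over the 22 tested chains, the log2 fold changes had a median of 1.02, beside -0.06 for all genes tested. That median includes 4 chains whose entry to the test depended on polymer X, so that it is partly set by the filter. COL3A1, COL6A3, COL9A2 and COL23A1 passed the filter only through their polymer X libraries, and all 4 were called higher. Such genes had to be higher to enter the test, and 51.8% of the 790 genes of this kind were called higher. Of the 18 chains that passed in both groups, 7 were called higher and 1 lower, beside 7.94% higher and 9.69% lower among all 11027 genes that passed in both. The 2 libraries of TCP and the 2 of polymer X did not overlap in any of the 22 tested chains, which was also the case for 90.4% of all genes tested. Polymer X lay above in 16 of these chains and in 41.9% of all genes tested, and the 16 include the 4 chains that had to be higher. The lack of overlap therefore does not set the chains apart.

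**Figure D2:**
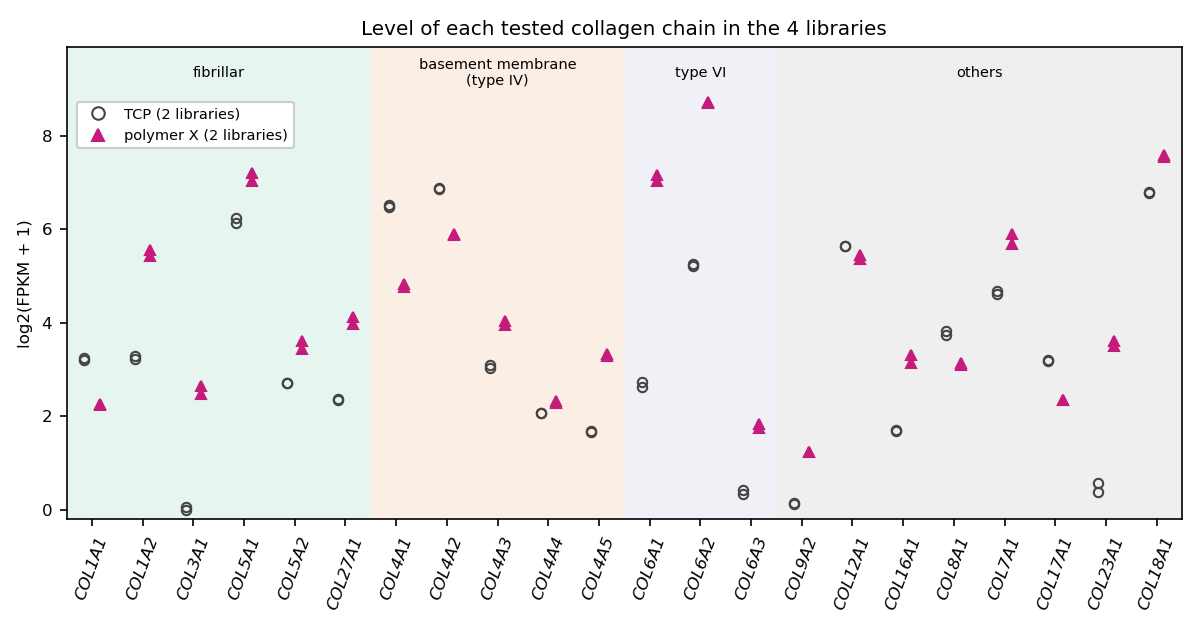
Each symbol is the level of a tested collagen chain in 1 library, as log2(FPKM + 1) on the vertical axis, with open circles for TCP and triangles for polymer X, grouped by class. The 3 tested type VI chains lie higher on polymer X, whereas COL4A1 and COL4A2 lie lower.

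Type VI collagen is a heterotrimer in which the alpha-1 and alpha-2 chains combine with alpha-3 or an alpha-3-like chain. COL6A1 (NM_001848, hg19 chromosome 21, 47401663 to 47424963) encodes the alpha-1 chain. Its FPKM was 5.22 and 5.64 on TCP and 131 and 143 on polymer X. It rose 25.2-fold between the means of 5.43 ± 0.296 and 137 ± 8.57 (SD, n = 2 each), with a log2 fold change of 4.42 (SE 0.0652, limma adjusted p = 2.1e-10). No other tested chain had a larger log2 fold change with a pseudocount of 1, whereas with 0.1 COL3A1 (5.39) exceeded COL6A1 (4.63). COL6A2 (NM_001849, chromosome 21, 47518033 to 47552763), on the same strand as COL6A1, encodes the alpha-2 chain. Its FPKM was 37.4 and 36.1 on TCP and 416 and 423 on polymer X, where no other collagen chain had a higher level. The rise was 11.4-fold (log2 fold change 3.48, SE 0.0552, limma adjusted p = 2.4e-10), and its 3 annotated transcripts gave log2 fold changes of 3.44 to 3.48.

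COL6A3 (NM_057166, chromosome 2, 238232655 to 238322850), which encodes the long alpha-3 chain, was far less abundant than its partners in all 4 libraries. Its FPKM was 0.269 and 0.347 on TCP and 2.37 and 2.59 on polymer X. It was called higher (8.05-fold, log2 fold change 1.41, limma adjusted p = 3.8e-07), and its 5 transcripts ranged from 0.79 to 1.41. A pseudocount of 0.1 gave 2.67. The chains that can take the place of alpha-3, COL6A5 and COL6A6, had at most 7 tags in any library, so that neither was tested. COL6A1 amounted to 0.139 and 0.156 of COL6A2 per length on TCP and to 0.314 and 0.338 on polymer X. COL6A3 amounted to 0.00718 and 0.0096 of COL6A2 on TCP and to 0.0057 and 0.00612 on polymer X. The abundance of alpha-1 relative to alpha-2 was thus higher on polymer X in both libraries, while alpha-3 remained under 1% of alpha-2 throughout.

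The region before the start of COL6A2, the most abundant collagen chain on polymer X, is given here because its gene combined a high level with a large change. It was read from the RefSeq promoters of GRCh38.p14 (chr21:46097862-46098111, plus strand), as the 250 bases upstream of the start site. Capitals mark matches to GGGCGG or its reverse complement, the letters of a GC box bound by Sp factors, and to TATAAA, the letters of a TATA box.
COL6A2: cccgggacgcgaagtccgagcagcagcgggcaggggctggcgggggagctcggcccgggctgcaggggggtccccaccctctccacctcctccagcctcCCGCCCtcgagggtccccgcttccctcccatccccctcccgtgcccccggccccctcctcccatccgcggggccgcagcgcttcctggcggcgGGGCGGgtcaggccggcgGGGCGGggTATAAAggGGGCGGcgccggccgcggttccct
The sequence held 4 matches to GGGCGG and 1 to TATAAA. Over the 35116 human promoter windows of the same length, 42.6% held GGGCGG and 10.7% held TATAAA on either strand. A match describes letters only and does not show that a factor was bound.

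Among the fibrillar collagens, type I, the main collagen of bone, skin and tendon, showed opposite values for its chains. COL1A2 (NM_000089, chromosome 7, 94023873 to 94060544), the alpha-2 chain, was at 8.41 and 8.75 FPKM on TCP and at 45.8 and 42.2 FPKM on polymer X. It rose 5.13-fold (log2 fold change 2.23, SE 0.0628, limma adjusted p = 4.5e-09). COL1A1 (NM_000088, chromosome 17, 48261457 to 48279000), the alpha-1 chain, was at 8.21 and 8.48 FPKM on TCP and at 3.81 and 3.77 FPKM on polymer X. Its log2 fold change was -0.96 (95% interval -1.12 to -0.81, limma adjusted p = 9.3e-07), just short of the fold change minimum. It was called lower with a pseudocount of 0.1 (-1.12) and with quantile normalization (-1.03). The ratio of COL1A1 to COL1A2 was 0.976 and 0.969 on TCP and 0.0831 and 0.0894 on polymer X. The transcripts were thus nearly equal in the monolayer, whereas in the spheroids alpha-2 exceeded alpha-1 by more than 10 to 1. The usual type I trimer contains more alpha-1 than alpha-2 chains.

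COL3A1 (NM_000090, chromosome 2, 189839099 to 189877472), whose product forms type III homotrimers in elastic tissues, was almost absent on TCP. It had 0 and 10 tags there, an FPKM of 0 and 0.041, against 5.26 and 4.55 FPKM on polymer X. The log2 fold change was 2.53 (SE 0.0893, limma adjusted p = 1.3e-08), a size set by the pseudocount, since 0.1 in place of 1 gave 5.39. COL27A1 (NM_032888, chromosome 9, 116917825 to 117074796), a fibrillar chain known from cartilage, was at 4.15 and 4.14 FPKM on TCP and at 14.8 and 16.3 FPKM on polymer X. It rose 3.76-fold (log2 fold change 1.69, limma adjusted p = 3.5e-08). COL1A2, COL3A1 and COL27A1 were the 3 fibrillar chains called higher, out of 6 tested and 11 in the class. COL1A2 and COL27A1 were 2 of the 5 that passed the filter in both groups, beside 7.94% of all such genes, and no fibrillar chain was called lower (1, COL1A1, by limma with no fold change minimum).

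Type V collagen nucleates fibrils and sets their diameter. COL5A1 (NM_001278074, chromosome 9, 137533651 to 137736688) was the most abundant fibrillar chain in every library, at 69.3 and 74.3 FPKM on TCP and at 130 and 147 FPKM on polymer X. The log2 fold change of 0.94 (95% interval 0.78 to 1.10, limma adjusted p = 1.7e-06) stayed under the fold change minimum. Quantile normalization (1.29) and leaving out polymer X replicate 1 (1.02) brought COL5A1 past it. COL5A2 (NM_000393, chromosome 2, 189896641 to 190044605) was at 5.55 and 5.60 FPKM on TCP and at 11.2 and 9.86 FPKM on polymer X, with a log2 fold change of 0.81 (95% interval 0.64 to 0.97, limma adjusted p = 6.2e-06). The ratio of COL5A2 to COL5A1 was 0.0802 and 0.0753 on TCP and 0.0858 and 0.0672 on polymer X. These ratios overlapped between the groups, so that a shift in the balance of the type V chains was not detectable, in contrast to the chains of type I.

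**Figure D3:**
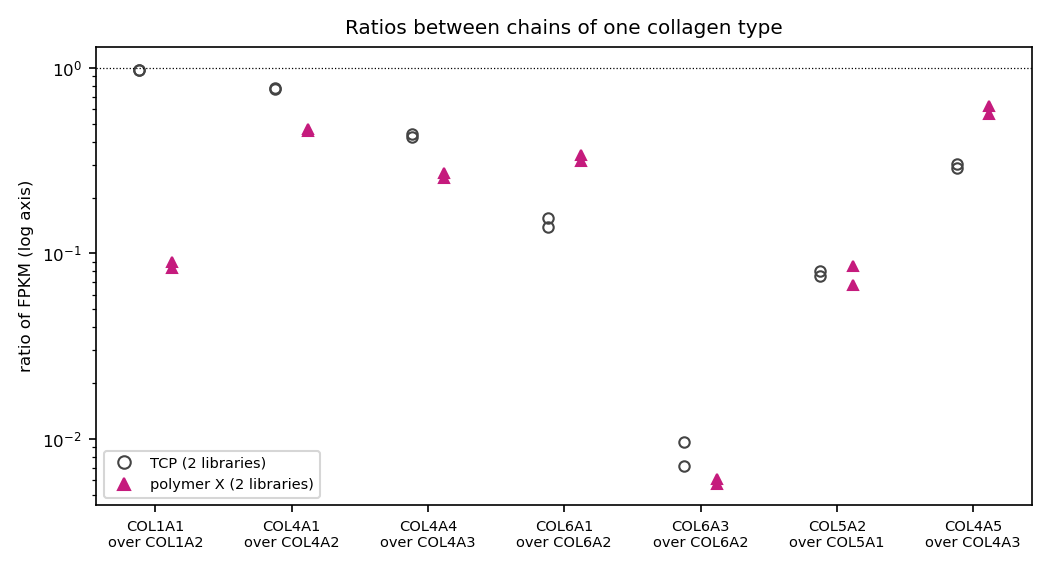
The vertical axis is the FPKM of a collagen chain divided by that of a partner chain of the same type, on a log scale, with open circles for the 2 TCP libraries and triangles for the 2 polymer X libraries. The ratio of COL1A1 to COL1A2 is 0.976 and 0.969 on TCP and 0.0831 and 0.0894 on polymer X, while that of COL5A2 to COL5A1 overlaps between the groups.

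Type IV collagen genes lie as head-to-head pairs, each pair transcribed in opposite directions from a shared region. The pair COL4A1 and COL4A2 encodes the chains of most basement membranes. COL4A1 (NM_001845, chromosome 13, 110801305 to 110959504) was at 88.7 and 91.5 FPKM on TCP and at 26.3 and 27.5 FPKM on polymer X. It fell 3.35-fold (log2 fold change -1.71, SE 0.0553, limma adjusted p = 8.4e-09), and a shorter transcript of the gene gave -2.15. COL4A1 was the only collagen chain called lower. COL4A2 (NM_001846, chromosome 13, 110959614 to 111165556) was at 115 and 118 FPKM on TCP and at 57.8 and 58.8 FPKM on polymer X. Its log2 fold change of -0.98 (95% interval -1.10 to -0.86, limma adjusted p = 1.9e-07) stayed short of the fold change minimum, and quantile normalization gave -0.63. The ratio of COL4A1 to COL4A2 was 0.771 and 0.779 on TCP and 0.456 and 0.468 on polymer X, so that the 2 chains did not keep their proportion.

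The start sites of COL4A1 and COL4A2 were 110 bases apart in the hg19 annotation of the files and 127 bases apart in the RefSeq annotation of GRCh38.p14. The sequence between them is given because both genes start from it (chr13:110307158-110307283, GRCh38.p14, strand of COL4A2). Capitals mark GGGCGG and CCAAT, the latter being the letters of the CCAAT box bound by NF-Y, on either strand.
COL4A2: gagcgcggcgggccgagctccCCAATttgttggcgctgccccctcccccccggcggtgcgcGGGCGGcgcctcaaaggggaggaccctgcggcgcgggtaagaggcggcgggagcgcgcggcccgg
It held 1 match to GGGCGG and 1 to CCAAT. In windows of this length, cut from the end of each human promoter, 34.6% held GGGCGG and 21.1% held CCAAT.

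The pair COL4A3 and COL4A4 encodes chains of specialized basement membranes, such as that of the kidney glomerulus. COL4A3 (NM_000091, chromosome 2, 228029281 to 228179508) was at 7.23 and 7.57 FPKM on TCP and at 14.5 and 15.6 FPKM on polymer X. The log2 fold change of 0.93 (95% interval 0.78 to 1.08, limma adjusted p = 1e-06) was not called, but passed the minimum with a pseudocount of 0.1 (1.01) and with quantile normalization (1.02). COL4A4 (NM_000092, chromosome 2, 227867427 to 228029275) was at 3.19 and 3.21 FPKM on TCP and at 3.91 and 3.99 FPKM on polymer X, with a log2 fold change of 0.24 (95% interval 0.08 to 0.40, limma adjusted p = 0.012). The limma adjusted p was 0.35 with quantile normalization (0.077) and 0.055 without TCP replicate 1. As in the other pair, the ratio differed between the groups, with COL4A4 at 0.441 and 0.424 of COL4A3 on TCP and at 0.27 and 0.256 on polymer X.

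COL4A5 (NM_033380, chromosome X, 107683074 to 107940775), which joins COL4A3 and COL4A4 in a trimer, was at 2.20 and 2.18 FPKM on TCP and at 9.06 and 8.77 FPKM on polymer X. It was the only type IV chain called higher (4.07-fold, log2 fold change 1.64, limma adjusted p = 3.9e-08). Its level was 0.304 and 0.288 of COL4A3 on TCP and 0.625 and 0.563 on polymer X. COL4A6, which lies head to head with COL4A5, had 0 tags in both TCP libraries and 10 and 3 tags in the polymer X libraries. It was too low to test, so that the pair held a called gene and a gene near the limit of detection. Type IV thus held chains that were higher, lower and uncalled in the same spheroids, and its summed FPKM followed COL4A1 and COL4A2.

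The upstream regions of COL4A3 and COL4A5 are given for comparison with that of the COL4A1 and COL4A2 pair. COL4A3 is at chr2:227164374-227164623 and COL4A5 at chrX:108439588-108439837, both on the plus strand of GRCh38.p14. Capitals mark GGGCGG of the GC box and CCAAT of the CCAAT box. They also mark ACGTG, the core letters of a hypoxia response element, and CAGAC, the letters of a SMAD binding element, on either strand.
COL4A3: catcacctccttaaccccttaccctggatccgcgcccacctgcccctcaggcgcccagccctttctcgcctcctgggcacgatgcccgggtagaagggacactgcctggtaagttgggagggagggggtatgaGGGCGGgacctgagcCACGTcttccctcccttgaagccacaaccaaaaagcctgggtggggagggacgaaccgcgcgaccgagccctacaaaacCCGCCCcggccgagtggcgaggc
COL4A5: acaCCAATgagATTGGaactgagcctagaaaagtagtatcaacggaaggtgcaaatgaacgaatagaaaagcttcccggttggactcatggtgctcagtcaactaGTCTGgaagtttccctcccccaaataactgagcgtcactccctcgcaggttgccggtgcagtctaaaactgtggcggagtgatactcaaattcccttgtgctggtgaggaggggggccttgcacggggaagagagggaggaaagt
COL4A3 held 2 matches to GGGCGG and 1 to ACGTG, whereas COL4A5 held 2 to CCAAT and 1 to CAGAC. The 2 regions shared none of the motif letters searched. ACGTG was present in 18.5%, CCAAT in 32% and CAGAC in 38% of all human promoter windows.

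**Figure D4:**
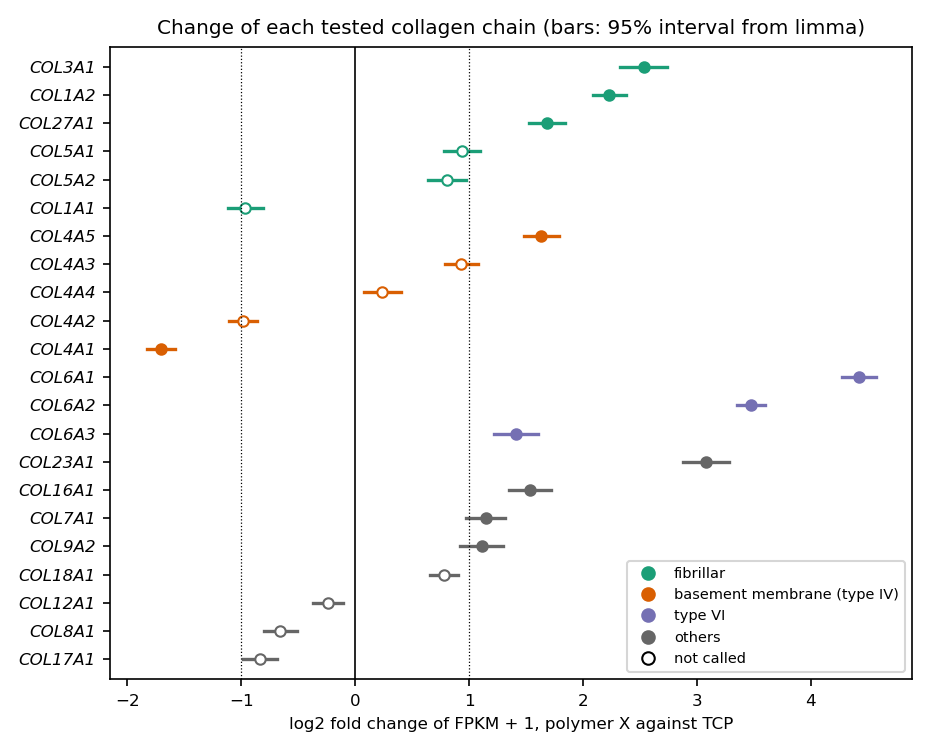
Points give the log2 fold change of FPKM + 1 on polymer X against TCP (horizontal axis) for the 22 tested collagen chains, with 95% intervals from limma and filled symbols for called chains. Dotted lines mark the fold change minimum, and COL1A1, COL4A2, COL5A1, COL4A3, COL7A1 and COL9A2 have intervals that cross it.

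Among the 22 chains of other types, 8 were tested, 4 were called higher and none was called lower by limma, beside 10.7% and 9.45% of all genes tested. COL9A2 and COL23A1 passed the filter only through polymer X, and 2 of the 6 that passed in both groups were called higher, beside 7.94% of all such genes. At an adjusted p under 0.05 with no fold change minimum, 3 of the 8 tested chains, COL12A1, COL8A1 and COL17A1, were lower. By that looser rule, 5212 of all 11964 genes tested were lower. COL23A1 (NM_173465, chromosome 5, 177664617 to 178017556), a transmembrane collagen, was at 0.481 and 0.308 FPKM on TCP and at 10.3 and 11.3 FPKM on polymer X. It rose 27.3-fold (log2 fold change 3.08, SE 0.0885, limma adjusted p = 4.8e-09), the highest ratio of means among the chains with tags in every library. In contrast, COL17A1 (NM_000494, chromosome 10, 105791046 to 105845638), the transmembrane collagen of hemidesmosomes, was at 8.15 and 8.18 FPKM on TCP and at 4.13 and 4.12 FPKM on polymer X (log2 fold change -0.84, 95% interval -0.99 to -0.69, limma adjusted p = 2.1e-06), and was not called.

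COL7A1 (NM_000094, chromosome 3, 48601506 to 48632593) encodes the anchoring fibrils that fasten epithelial basement membranes to the tissue below. Its FPKM was 23.7 and 24.6 on TCP and 50.6 and 58.8 on polymer X. It rose 2.27-fold (log2 fold change 1.14, SE 0.0741, limma adjusted p = 6.1e-07). COL16A1 (NM_001856, chromosome 1, 32117848 to 32169768), a chain of the fibril-associated group, was at 2.29 and 2.22 FPKM on TCP and at 7.88 and 9.01 FPKM on polymer X, a rise of 3.74-fold (log2 fold change 1.53, limma adjusted p = 1.5e-07). COL9A2 (NM_001852, chromosome 1, 40766163 to 40782939), a chain of the type IX collagen of cartilage, was low in all libraries. It was at 0.093 and 0.103 FPKM on TCP and at 1.38 and 1.37 FPKM on polymer X, and was called higher (log2 fold change 1.11, limma adjusted p = 1.6e-06). It was not called with quantile normalization (0.84), was not tested at a mean FPKM of at least 5, and was at 2.90 with a pseudocount of 0.1. Its partner chains COL9A1 and COL9A3 were too low to test, with at most 2 and 26 tags.

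COL12A1, COL8A1 and COL18A1 were tested but not called. COL12A1 (NM_080645, chromosome 6, 75794042 to 75915623), which encodes a bridge between fibrils, was at 48.8 and 49.4 FPKM on TCP and at 43.0 and 40.0 FPKM on polymer X. Its log2 fold change of -0.24 (95% interval -0.37 to -0.11, limma adjusted p = 0.004) changed sign with quantile normalization (0.066) and was -0.52 for the longest transcript. COL8A1 (NM_020351, chromosome 3, 99357440 to 99515577), a short-chain collagen of networks, was at 12.4 and 13.3 FPKM on TCP and at 7.64 and 7.86 FPKM on polymer X, with a log2 fold change of -0.66 (95% interval -0.81 to -0.51, limma adjusted p = 1.1e-05). COL18A1 (NM_130445, chromosome 21, 46825052 to 46933634) encodes a basement membrane proteoglycan whose end fragment is endostatin. It held the second rank among the collagen chains in both groups, at 109 and 110 FPKM on TCP and at 186 and 191 FPKM on polymer X. The log2 fold change was 0.78 (95% interval 0.65 to 0.90, limma adjusted p = 1.1e-06), and quantile normalization gave 1.10, past the fold change minimum. COL18A1 overlaps SLC19A1 on the opposite strand, and the counting did not use strand. SLC19A1 was at 23.9 and 24.0 FPKM on TCP and at 32.8 and 31.4 FPKM on polymer X, and its part in the COL18A1 values was not tested.

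COL7A1 was the only tested chain, among the 16 with a window in the promoter set used, with a match to TTCNNNGAA, the letters of a STAT binding site. COL1A1, COL1A2, COL3A1, COL5A2, COL6A1 and COL8A1 were tested chains without a window in that set and were not searched. STAT3 signaling was the subject of the study that produced these libraries, and the region of COL7A1 is given for that reason (chr3:48595330-48595579, minus strand, GRCh38.p14). COL23A1 is given beside it as the chain with the highest ratio of means among those with tags in every library (chr5:178590394-178590643, minus strand). Capitals mark the letters of the STAT site, the GC box, the SMAD element and the TATA box on either strand.
COL7A1: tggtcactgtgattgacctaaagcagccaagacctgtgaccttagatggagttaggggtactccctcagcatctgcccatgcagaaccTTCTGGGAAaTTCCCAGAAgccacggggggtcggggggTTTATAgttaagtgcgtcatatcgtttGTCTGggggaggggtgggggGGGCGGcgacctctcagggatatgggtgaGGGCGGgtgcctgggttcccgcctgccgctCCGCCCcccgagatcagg
COL23A1: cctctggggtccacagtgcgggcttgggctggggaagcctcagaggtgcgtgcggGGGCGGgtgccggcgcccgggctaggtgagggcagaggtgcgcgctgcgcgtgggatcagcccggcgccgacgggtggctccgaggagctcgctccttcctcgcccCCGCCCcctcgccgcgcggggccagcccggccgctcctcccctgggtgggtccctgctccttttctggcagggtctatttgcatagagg
COL7A1 held 2 matches to TTCNNNGAA, 3 to GGGCGG, 1 to CAGAC and 1 to TATAAA. COL23A1 held 2 matches to GGGCGG and none to the other letters. TTCNNNGAA was found in 6.57% of all promoter windows, so that 1 of 16 chains lay near that share. GGGCGG was present in 12 of the 16 chains, CAGAC in 6, CCAAT in 4, TATAAA in 4 and ACGTG in 3. In the same order, 42.6%, 38%, 32%, 10.7% and 18.5% of all promoter windows held these letters. A chain was counted if any of its windows matched, whereas the shares are per window. The windows of COL4A1 and COL4A2 also overlap by 226 bases, and the differences from the shares were not tested.

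The order of the collagen chains by level differed between the cultures. On TCP, COL4A2 held 20.5% of the collagen FPKM, followed by COL18A1 with 19.3%, COL4A1 with 15.9% and COL5A1 with 12.7%. The lowest and highest values of these 4 did not overlap with each other. On polymer X, COL6A2 held 34.7%, followed by COL18A1 with 15.6%, COL5A1 with 11.5% and COL6A1 with 11.3%. The values of COL5A1 and COL6A1 overlapped there, as did those of COL4A2 and COL7A1, which came next with 4.83% and 4.53%. Thus 8 chains made up 90.0% of collagen FPKM on TCP and 8 chains 89.6% on polymer X. COL6A1 and COL1A2 belonged to the latter 8, and COL4A1 and COL8A1 to the former.

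The remaining 22 chains did not pass the filter, and the highest of them, COL13A1, reached 0.441 FPKM. They were COL2A1, COL5A3, COL11A1, COL11A2 and COL24A1 of the fibrillar class, COL4A6, COL6A5 and COL6A6, and COL8A2, COL9A1, COL9A3, COL10A1, COL13A1, COL14A1, COL15A1, COL19A1, COL20A1, COL21A1, COL22A1, COL25A1, COL26A1 and COL28A1 of the others. In 14 of them, no library held more than 10 tags. COL2A1, the chain of cartilage type II collagen, had 16 and 12 tags on TCP and 45 and 44 on polymer X. COL13A1, a transmembrane collagen, had 15 and 9 tags on TCP and 39 and 53 on polymer X. Both polymer X libraries lay above both TCP libraries in 13 of the 22 chains and below them in COL15A1, beside 28.3% above and 7.91% below among all 7511 genes under the filter. Genes with no tag in any library can only count as overlapping. Their number among the 7511 was not counted, so that the shares are not strictly comparable. COL11A2 and COL22A1 had no tag in any library, where 3 tags or fewer were taken as the floor. COL11A2 is listed 7 times in hg19, and 76.9% of the 169 symbols listed 6 or more times had a mean FPKM under 0.1, against 27.0% of symbols listed a single time. Its listing at 0 is therefore uncertain.

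The genes that process, bind and degrade collagen were examined as a list of 76, of which 52 were tested, 16 were called higher and 1 lower, beside 10.7% higher and 9.45% lower among all genes tested. The median log2 fold change of the 52 was 0.50, beside -0.06 for all genes tested. It includes 5 genes that had to be higher to enter the test, so that it is partly set by the filter. PCOLCE, LUM, DCN, CSPG4 and OSCAR passed the filter only through polymer X, and their log2 fold changes were 2.89 to 6.51 with a pseudocount of 0.1. Of the 47 that passed in both groups, 11 were called higher, beside 7.94% of all such genes. Chains are hydroxylated in the endoplasmic reticulum, and 2 of 13 tested genes of that group were called higher. All 13 passed the filter in both groups, and 7.94% of all such genes were called higher. With 2 genes called, a difference from that share was not tested. P4HA1, a catalytic subunit of prolyl 4-hydroxylase, was at 38.7 and 39.1 FPKM on TCP and at 88.1 and 92.8 FPKM on polymer X (log2 fold change 1.20, limma adjusted p = 6.9e-08). PLOD1, a lysyl hydroxylase, was at 98.7 and 99.0 FPKM on TCP and at 196 and 212 FPKM on polymer X (log2 fold change 1.03, limma adjusted p = 3.1e-07), and was not called without polymer X replicate 2 (0.98). None of the 8 tested chaperones and export genes was called by limma, and 5 of them had an adjusted p under 0.05. Of all 11964 genes tested, 4477 were higher and 5212 lower at that threshold, so that 5 of 8 does not set this group apart. SERPINH1, the collagen chaperone HSP47, was at 87.4 and 87.5 FPKM on TCP and at 102 and 91.7 FPKM on polymer X (95% interval of the log2 fold change -0.001 to 0.29, limma adjusted p = 0.062). The log2 fold changes of this group ran from -0.61 to 0.51.

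Outside the cell, propeptides are cleaved and the fibrils are cross-linked and decorated. PCOLCE, an enhancer of propeptide cleavage, was at 0.340 and 0.111 FPKM on TCP and at 2.97 and 2.72 FPKM on polymer X (log2 fold change 1.65, limma adjusted p = 5.2e-07). It was the only called gene of 5 tested in its group, beside 10.7% called higher among all genes tested. Of the 4 in that group that passed the filter on both substrates, 0 were called higher. LOX, the lysyl oxidase that cross-links fibrils, was at 14.1 and 13.4 FPKM on TCP and at 52.6 and 53.7 FPKM on polymer X (log2 fold change 1.88, limma adjusted p = 6.1e-09). TGM2, a cross-linking transglutaminase, was at 15.6 FPKM in both TCP libraries and at 44.8 and 49.1 FPKM on polymer X (log2 fold change 1.53, limma adjusted p = 3e-08). LOX and TGM2 were the 2 called genes among 6 tested for cross-linking, all of which passed the filter in both groups, beside 7.94% of all such genes called higher. The small proteoglycans LUM and DCN, which bind to fibrils and limit their thickness, were the 2 tested of 9 in their group. LUM was at 0.074 and 0.232 FPKM on TCP and at 24.1 and 19.6 FPKM on polymer X (log2 fold change 4.31, limma adjusted p = 2.5e-09). DCN was at 0.025 and 0 FPKM on TCP and at 7.26 and 6.2 FPKM on polymer X (log2 fold change 2.93, limma adjusted p = 6.7e-09). Both were thus near the limit of detection in the monolayer.

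Partners of the basement membrane included 2 called genes of 5 tested, both higher, although COL4A1 was lower. The other 3 were not called and went both ways. NID1 was higher (log2 fold change 0.708, limma adjusted p = 2.9e-05). NID2 (-0.524, limma adjusted p = 5.1e-05) and HSPG2 (-0.295, limma adjusted p = 0.0027) were lower, as COL4A1 was. All 5 passed the filter in both groups, and 7.94% of all such genes were called higher. SPARC, which binds collagen during its secretion and assembly, was at 5.73 and 5.16 FPKM on TCP and at 24.6 and 22.5 FPKM on polymer X (log2 fold change 1.93, limma adjusted p = 1.9e-08). AGRN, a heparan sulfate proteoglycan, was at 82.3 and 86.3 FPKM on TCP and at 180 and 174 FPKM on polymer X (log2 fold change 1.06, limma adjusted p = 1.8e-07). Of 8 tested receptors, 3 were called higher and 1 lower, beside 10.7% and 9.45% of all genes tested. Of the 6 receptors that passed the filter in both groups, 1 was called higher, beside 7.94% of all such genes. MRC2, an endocytic collagen receptor, was at 33.0 and 34.1 FPKM on TCP and at 94.6 and 97.7 FPKM on polymer X (log2 fold change 1.49, limma adjusted p = 1.6e-08). CSPG4, a proteoglycan that binds type VI collagen, was at 0.129 and 0.245 FPKM on TCP and at 1.74 and 2.24 FPKM on polymer X (log2 fold change 1.33, limma adjusted p = 2.2e-06). OSCAR, an immunoglobulin-like receptor, was at 0.035 and 0.134 FPKM on TCP and at 1.25 and 1.40 FPKM on polymer X (log2 fold change 1.10, limma adjusted p = 3.2e-06), and was not called with quantile normalization (0.84) or the longest transcript (0.97). CSPG4 and OSCAR were thus under 1 FPKM in both TCP libraries. ITGB1, the beta subunit of the collagen-binding integrins, was at 331 and 329 FPKM on TCP and at 136 and 125 FPKM on polymer X (log2 fold change -1.33, limma adjusted p = 7.7e-08), and was not called with quantile normalization (-0.97). The beta subunit was thus the only gene of the whole list called lower.

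Of 5 tested genes for degradation, 4 were called higher. All 5 passed the filter in both groups, and 7.94% of all such genes were called higher. MMP1, the interstitial collagenase, was at 22.6 and 20.0 FPKM on TCP and at 899 and 888 FPKM on polymer X (log2 fold change 5.33, limma adjusted p = 8.8e-11). MMP13, a collagenase with a preference for type II collagen, was at 1.74 and 1.79 FPKM on TCP and at 20.3 and 17.0 FPKM on polymer X (log2 fold change 2.82, limma adjusted p = 6.7e-09). MMP2, a gelatinase that cleaves type IV collagen, was at 21.2 and 22.0 FPKM on TCP and at 104 and 105 FPKM on polymer X (log2 fold change 2.22, limma adjusted p = 2.1e-09). The remaining called gene, CTSK, a collagen-cleaving protease of osteoclasts, was at 1.40 and 1.66 FPKM on TCP and at 4.82 and 5.45 FPKM on polymer X (log2 fold change 1.28, limma adjusted p = 8.8e-07). It lay outside the rule for named genes and was chosen after its values were seen. MMP8, a collagenase, MMP9 and the membrane-bound MMP14 stayed under 1 FPKM in every library and were not tested.

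**Figure D5:**
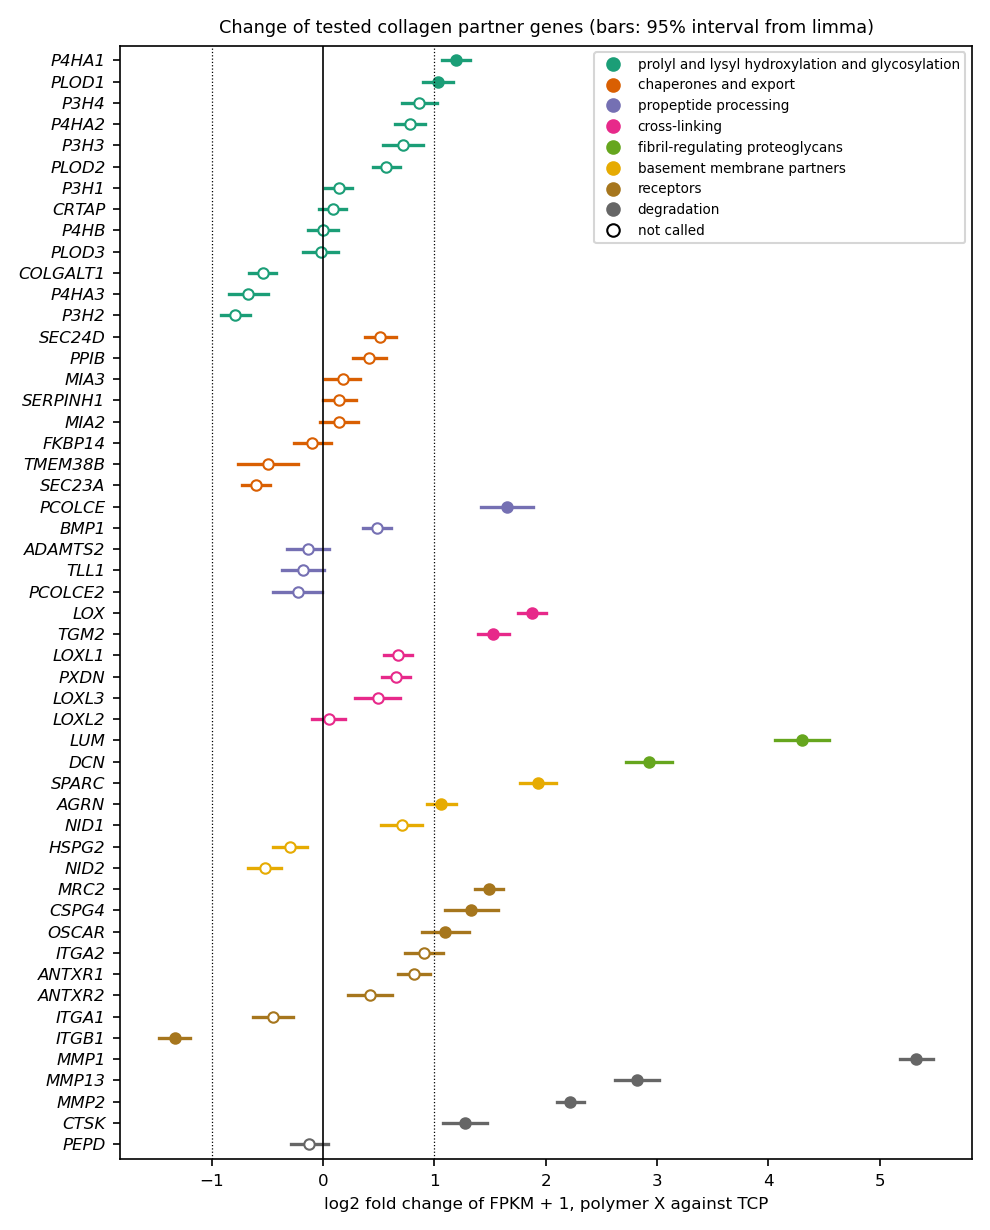
Points give the log2 fold change of FPKM + 1 on polymer X against TCP (horizontal axis) for the 52 tested collagen partner genes, with 95% intervals from limma, colored by role and filled where called. MMP1 at 5.33 and LUM at 4.31 lie farthest to the right, and ITGB1 at -1.33 is the only gene called lower.

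Because several of these chains are typical of mesenchymal cells, markers of other cell types were examined in the same libraries. Of 8 epithelial and SKOV3 markers, 6 reached 1 FPKM, among them KRT8, KRT18, ERBB2 and PAX8, and the 8 summed to 640.5 and 654 FPKM on TCP and to 1257 and 1207 FPKM on polymer X. ERBB2 alone was at 198 and 206 FPKM on TCP and at 913 and 860 FPKM on polymer X, and the other 7 summed to 442 and 449 FPKM on TCP and to 344 and 346 FPKM on polymer X. KRT8, KRT18 and KRT7 were lower on polymer X without being called, with KRT8 at 262 and 269 FPKM on TCP and at 146 and 143 FPKM on polymer X. ERBB2, PAX8 and EPCAM were called higher. PAX8 was at 48.8 and 50.5 FPKM on TCP and at 102 and 108 FPKM on polymer X. EPCAM was at 0.168 and 0.104 FPKM on TCP and at 1.39 and 1.325 FPKM on polymer X, and passed the filter only through polymer X. WT1 and KRT19 stayed under 1 FPKM. KRT19 was at 0.338 and 0.441 FPKM on TCP and at 0.734 and 0.655 FPKM on polymer X. WT1 was at 0.202 and 0.421 FPKM on TCP and at 0.118 and 0.008 FPKM on polymer X. The 9 fibroblast and pericyte markers summed to 1.80 and 2.10 FPKM on TCP and to 11.2 and 10.1 FPKM on polymer X, and DCN and CSPG4 were the 2 that reached 1 FPKM. DCN was at 0.025 and 0 FPKM on TCP and at 7.26 and 6.2 FPKM on polymer X. CSPG4 was at 0.129 and 0.245 FPKM on TCP and at 1.74 and 2.24 FPKM on polymer X. FAP was at 0.058 and 0.14 FPKM on TCP and at 0.988 and 0.5 FPKM on polymer X, and PDGFRA at 0.103 and 0.084 FPKM on TCP and at 0.254 and 0.291 FPKM on polymer X, both too low to test. TCF21 was at 0 in every library and PDGFRB was at most at 0.115 FPKM. THY1, PDPN and RGS5 were lower on polymer X, and also too low to test. THY1 was at 0.139 and 0.184 FPKM on TCP and at 0.049 and 0 FPKM on polymer X. PDPN was at 0.529 and 0.786 FPKM on TCP and at 0.365 and 0.465 FPKM on polymer X. RGS5 was at 0.709 and 0.579 FPKM on TCP and at 0.387 and 0.415 FPKM on polymer X. The 6 endothelial markers summed to 0.569 and 0.593 FPKM on TCP and to 1.29 and 1.24 FPKM on polymer X. The 5 leukocyte markers summed to 0.137 and 0.047 FPKM on TCP and to 0.988 and 0.945 FPKM on polymer X, where PTPRC had 92 and 106 tags against 1 and 0 on TCP. Fibroblast, endothelial and leukocyte sums were thus all higher on polymer X, at levels far under those of the epithelial list. Their members did not all move together. The fibroblast rise lay mostly in DCN and CSPG4, and the endothelial rise in PECAM1 and TIE1. KDR, of the endothelial list, was lower, at 0.476 and 0.438 FPKM on TCP and at 0.215 and 0.11 FPKM on polymer X. Of the 4 chondrocyte markers, ACAN was at 0 throughout and MATN3 was called lower (log2 fold change -1.33, limma adjusted p = 4.1e-07), and the list summed to 7.50 and 7.40 FPKM on TCP and to 2.73 and 2.98 FPKM on polymer X. The part of other cells in the collagen values was not tested.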

How the data were processed

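The authors deposited FPKM values of each RefSeq transcript on hg19, made with HOMER by counting exon tags whatever their strand, divided by transcript length and mapped tags and given to 3 decimals. The submitters' processing notes also name STAR 2.4.0, an aligner. The library kit is described as directional, but strand was not used in counting, so that reads of overlapping genes on opposite strands cannot be separated. Total tags were recovered from the steps of low values, which lay within 0.1 of whole tags. Depth-based limits cover counting error only.

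Each symbol was represented by its transcript of highest mean FPKM. The 11964 of 19475 symbols that reached 1 FPKM in 2 or more libraries entered a limma 3.58.1 fit (R 4.3.3) of log2(FPKM + 1) over all 4 libraries, which modelled the mean-variance trend without a replicate term, and p-values were adjusted by Benjamini-Hochberg over these symbols. Fold changes without a log are ratios of mean FPKM, and SDs are over n = 2 libraries. The code was tested on simulated data.

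The members and lists were chosen with earlier results of these data known. Values are given for each chain with a mean FPKM of at least 1 in either group, and for up to 3 called partner genes per role and direction. SERPINH1, NID1, NID2, HSPG2, CTSK, MMP8, MMP9 and MMP14 are named outside that rule. Promoters came from RefSeq (GRCh38.p14) for 32 of 44 members. Alternatives were another pseudocount, other filters, scalings, transcripts and fold change minima, a replicate block, and leaving out each library.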

Additional observations from a re-analysis of the deposited data

How the results depend on the processing

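With a pseudocount of 0.1, 2 chains were called lower instead of 1, 1 of them fibrillar, and 2 type IV chains were higher instead of 1. Quantile normalization likewise gave 2 chains lower, 1 of them fibrillar, and 2 type IV chains higher, with 0 partner genes lower. It also gave COL12A1 a log2 fold change of 0.066 (limma adjusted p = 0.27). With no fold change minimum, 16 chains were higher and 6 lower, 5 fibrillar chains were higher and 1 lower, 3 type IV chains were higher and 2 lower, 3 other chains were lower, and 32 partner genes were higher and 9 lower. At a minimum of 2, 5 chains were higher and 0 lower, with 0 type IV chains higher and 0 lower and 1 other chain higher, and 5 partner genes were higher and 0 lower. Taking the longest transcript gave share changes of 1.31 percentage points for fibrillar, -30.3 for type IV and -9.53 for other chains, beside 0.64, -29.3 and -10.1. The fibrillar change was 0.353 without TCP replicate 1. The causes of these shifts were not tested beyond the construction of each alternative. Over all genes, the calls higher and lower were 1285 and 1131, beside 1837 and 1413 with the smaller pseudocount, 4477 and 5212 with no fold change minimum, 281 and 150 at a minimum of 2, and 702 and 960 at a mean FPKM of at least 5.

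Leaving out 1 library at a time gave 11 to 12 chains higher and 1 lower in each case, and the lone library of an arm was then assumed to vary like the other group. The log2 change of the ratio of COL5A2 to COL5A1 (-0.03) ran from -0.21 to 0.14, and was 0.0122 without TCP replicate 1 and 0.143 without polymer X replicate 2. Adding a block for replicate number left 11 chains higher and 1 lower, and 1285 and 1131 of all genes, as without it. Libraries with the same number deviated from their group means with a correlation of 0.093, and no pairing was assumed.

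With 2 libraries per group on a single cell line, the spread is estimated mainly from sharing across genes. Chains under the filter had at most 53 tags, and changes among them were not tested.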
